A study of Mus musculus with 11 samples.

Results

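Glucose enters heart muscle through transporters, is trapped and committed to glycolysis by kinases, and is then either burned in mitochondria or spared in favour of fat. The transcripts of 10 genes that govern these steps were followed in the ventricles of a Williams-Beuren syndrome (WBS) mouse model treated with JZL184. The genes were chosen by name, as the rows whose Ensembl identifier maps to Slc2a1, Slc2a4, Txnip, Arrdc4, Hk1, Hk2, Pfkfb2, Pdk1, Pdk2 or Pdk4. They are 10 of the 22608 genes of the count table, and all 10 were among the 11319 genes that passed the filter on low counts. The 11 samples were ventricles of male mice on a C57BL/6J background, aged 8 to 16 weeks. Complete deletion (CD) mice carry 1 intact copy of the genes of the WBS critical region on chromosome 5, as a heterozygous deletion present in every cell, and WT mice were their littermates. JZL184, which blocks monoacylglycerol lipase, the main enzyme that breaks down the endocannabinoid 2-AG, was injected daily at 8 mg/kg for 10 days. The groups were WT VEH (2 mice), WT JZL184 (3 mice), CD VEH (3 mice) and CD JZL184 (3 mice), where VEH is vehicle; in the deposited labels the treatment of the VEH mice is given as untreated, although their titles name vehicle. Each mouse is named here by its group and the letter of its column in the count table. The letters are in no label and were not used to pair mice between groups. P-values measure only the spread between these mice.

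The adult heart draws most of its energy from fatty acids and switches to glucose with feeding, workload or hypertrophy. GLUT1 (Slc2a1) takes up glucose at a steady rate, whereas GLUT4 (Slc2a4) is moved to the cell surface by insulin and contraction. Hexokinases (Hk1, Hk2) phosphorylate the sugar, and the cardiac bifunctional enzyme encoded by Pfkfb2 makes the activator of phosphofructokinase. The pyruvate dehydrogenase kinases (Pdk1, Pdk2, Pdk4) switch off the pyruvate dehydrogenase complex, so that less pyruvate is oxidised. The arrestin-domain proteins encoded by Txnip and Arrdc4 curb glucose uptake. Both genes are known targets of the glucose sensors ChREBP and MondoA, which bind E-box sequences with the partner Mlx, and ChREBP is encoded by Mlxipl, a gene of the deleted interval.

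Mlxipl, which lies in the deleted interval, was lower in CD mice. Its level was 20.6 and 21.5 CPM (counts relative to the TMM-scaled library size) in the WT VEH mice, and 8.12, 8.24 and 8.21 CPM in CD VEH mice A, C and E. WT JZL184 mice A, B and D held 13.7, 11.7 and 15.4 CPM, and CD JZL184 mice A, C and E held 9.27, 9.15 and 8.52 CPM. Every CD mouse lay below every WT mouse, and the WT JZL184 mice lay below both WT VEH mice. Mlxipl was lower in CD VEH than in WT VEH (log2 fold-change of -1.36, SE 0.09, adjusted p = 1.18e-05 by edgeR's quasi-likelihood test), and also lower in WT JZL184 than in WT VEH (-0.63, SE 0.09, adjusted p = 0.00205). Between CD JZL184 and WT JZL184 the difference was smaller (-0.60, SE 0.09, adjusted p = 0.000916), with an interaction of 0.76 (SE 0.13, adjusted p = 0.000661). Of the other glucose-sensing factors, Mlx was higher in CD VEH than in WT VEH (log2 fold-change of 0.25, adjusted p = 0.0383), and Mlxip (MondoA) had a log2 fold-change of -0.17 (adjusted p = 0.238).

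The libraries held 69660232 to 92251443 counts per mouse, at which 3 counts correspond to 0.0308 to 0.0429 CPM (counting error only). Mitochondrially encoded transcripts made up 39.4% to 41.2% of the library in WT VEH, 45% to 46.6% in WT JZL184, 43.5% to 44.7% in CD VEH and 36.4% to 40.1% in CD JZL184. The 8 cardiomyocyte markers summed to 35123 to 47718 CPM, whereas the 6 skeletal muscle markers summed to at most 1.51 CPM and the 7 adipocyte markers to at most 2.37 CPM, with Lep at 0 in all WT mice and Ucp1 at 0 in the CD JZL184 mice. The 6 endothelial markers summed to 541.5 to 556.7 CPM in WT VEH, 845.8 to 879.1 CPM in WT JZL184, 718.5 to 800.0 CPM in CD VEH and 541.1 to 633.8 CPM in CD JZL184. The 5 macrophage markers summed to 98.4 to 101.7, 122.8 to 191.9, 128.7 to 156.4 and 91.1 to 102.6 CPM in the same order. The 6 erythroid markers summed to 1419 to 5435 CPM in 10 mice and to 18806 CPM in CD VEH mouse A, so results are also given without that mouse. In these bulk samples, fewer cells of a type and less RNA per cell cannot be told apart.

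The upstream sequences of Txnip and Arrdc4 are shown because of the E-box through which glucose sensors act on both genes. RefSeq promoter windows of GRCm38.p6, from 250 bases before to 50 bases after the start, were present for 9 of the 10 genes, and Slc2a4 was not among them. The windows were searched on both strands for CACGTG and for a pair of half-sites (CACGNG or CNCGTG) 5 bases apart. Capitals mark the matches in the strand of the gene.
Txnip, chr3:96557847-96557913, plus strand: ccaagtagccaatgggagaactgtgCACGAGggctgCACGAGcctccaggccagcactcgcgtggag
Arrdc4, chr7:68749401-68749456, minus strand: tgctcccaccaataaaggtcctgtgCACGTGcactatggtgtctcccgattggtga
Pfkfb2, chr1:130715822-130715868, minus strand: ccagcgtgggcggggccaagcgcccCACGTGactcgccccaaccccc
Pdk2, chr11:95041467-95041522, minus strand: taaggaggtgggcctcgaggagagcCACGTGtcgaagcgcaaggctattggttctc
The paired half-sites of Txnip lay 85 to 69 bases before the start, and only 27 of 32851 promoter windows (0.0822%) held such a pair. Arrdc4 had a full CACGTG 193 to 188 bases before the start, a sequence that was present in 2349 windows (7.15%). Single CACGTG matches were also found in 1 window each of Pfkfb2 and Pdk2. These are matches of letters in the reference genome and are no evidence of binding in these hearts.

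Levels between genes were compared as CPM per kilobase of the mean length of the coding transcripts. Over the 11 mice, Pdk4 (mean 210.1 CPM per kb) and Txnip (186.5) were highest, followed by Slc2a4 (113.7) and Pdk2 (112.7). Hk2 (46.6), Pfkfb2 (33), Hk1 (30.3) and Pdk1 (24.0) came next, and Arrdc4 (5.44) and Slc2a1 (2.91) were lowest. The mice of Pdk4 (75.3 to 357.6 CPM per kb) spanned those of Txnip (115.6 to 245.9), both overlapped those of Slc2a4 and Pdk2, the latter overlapped each other, as did those of Pfkfb2 with Hk2, Hk1 and Pdk1. Arrdc4 (3.96 to 7.52) and Slc2a1 (2.23 to 3.56) did not overlap each other or any gene above them. With the longest transcript as length, Slc2a4 and Pdk2 exchanged places and Pfkfb2 moved from rank 6 to rank 8. Arrdc4 then overlapped Slc2a1, with a mean of 2.69 CPM per kb for Arrdc4 in WT VEH and 3.43 for Slc2a1 in CD JZL184. The 10 genes also differed in how far mice of the same group lay apart. The within-group SD of log2 CPM was 0.82 for Pdk4, 0.33 for Txnip, 0.25 for Pfkfb2 and 0.24 for Arrdc4, against a median of 0.10 and an upper quartile of 0.14 over all tested genes. Hk1 (0.08), Pdk2 (0.09) and Slc2a4 (0.10) were at or below that median.

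The 4 comparisons between groups and an interaction were tested, and a gene was called at an adjusted p under 0.05 in a model of all 11319 genes. In CD VEH against WT VEH, 5 of the 10 genes were called, beside 30.0% of all genes tested: Arrdc4 was higher, and Hk1, Hk2, Pfkfb2 and Pdk1 were lower. In CD JZL184 against CD VEH, 7 were called, beside 33.5% of all genes: Slc2a4, Hk1, Hk2, Pfkfb2, Pdk1 and Pdk2 were higher and Arrdc4 was lower. In WT JZL184 against WT VEH, 5 were called, beside 29.2% of all genes, and Slc2a4, Hk1, Hk2, Pfkfb2 and Pdk2 were all lower. In CD JZL184 against WT JZL184, 5 were called, beside 38.3% of all genes, and Slc2a1, Slc2a4, Hk1, Hk2 and Pdk2 were all higher. The effect of JZL184 differed between CD and WT mice for 7 of the 10 genes, beside 51.5% of all genes in the same interaction test. The median log2 fold-change of the 10 genes was -0.25, 0.28, -0.28 and 0.34 in the 4 comparisons in this order and 0.56 for the interaction, whereas the median of all tested genes lay between -0.01 and 0.02. Each group enters more than 1 of the comparisons, so these share mice and are not independent of each other.

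**Figure D1:**
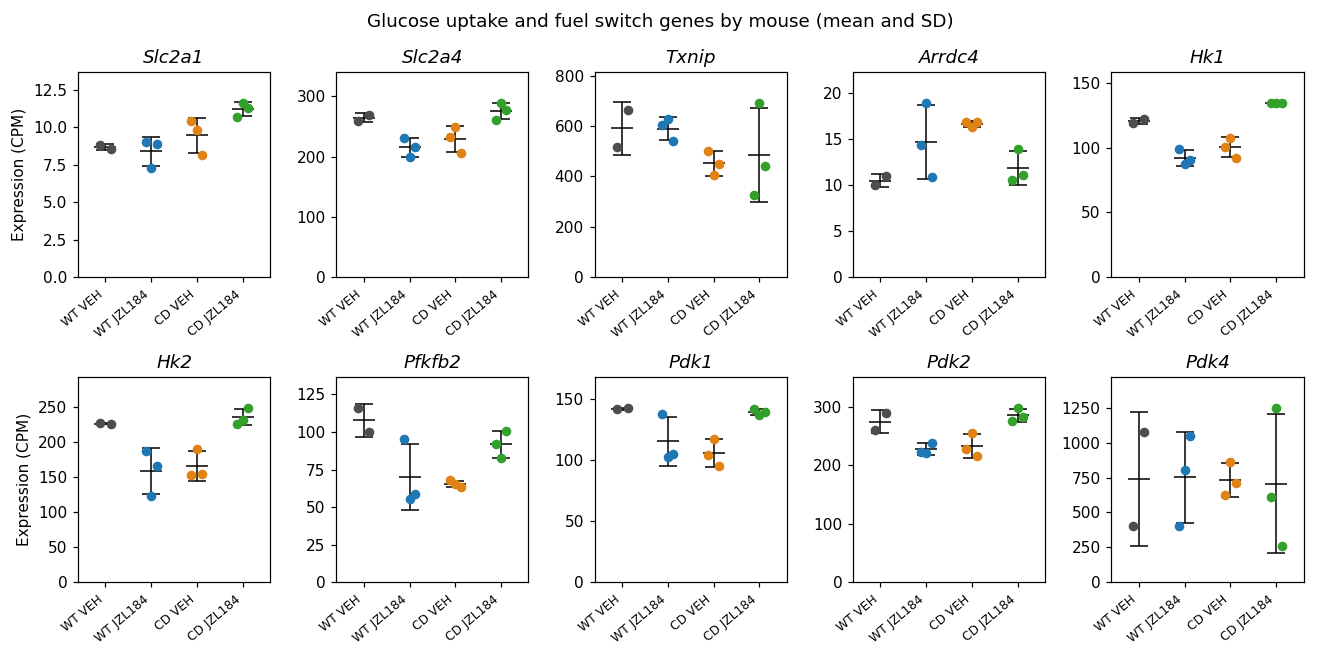
Level of each of the 10 genes (CPM, linear axes from 0) in the 4 groups. Points are mice (2 in WT VEH, 3 in each other group), and bars are the mean and SD. For Slc2a4, Hk1, Hk2, Pdk1 and Pdk2 the WT JZL184 and CD VEH mice lie below most WT VEH and CD JZL184 mice; Arrdc4 has its lowest mean in WT VEH, and the Pdk4 points spread from 262.2 to 1246 CPM.

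GLUT4 transcripts far outnumbered those of GLUT1. Per kilobase, Slc2a4 made up 97.1% to 98.0% of the summed Slc2a1 and Slc2a4 in every mouse. Slc2a4 (ENSMUSG00000018566.14, chr11:69942539-69948188) stood at 259.6 and 269.8 CPM in WT VEH mice C and D, and at 231.3, 199.8 and 215.3 CPM in WT JZL184 mice A, B and D. CD VEH mice A, C and E held 233.1, 248.6 and 205.5 CPM, and CD JZL184 mice A, C and E held 261.6, 288.8 and 276.8 CPM. All 3 WT JZL184 and all 3 CD VEH mice were below every WT VEH and CD JZL184 mouse. Slc2a4 was lower in WT JZL184 than in WT VEH (log2 fold-change of -0.30, SE 0.09, adjusted p = 0.032) and higher in CD JZL184 than in CD VEH (0.27, SE 0.08, adjusted p = 0.0283). The difference between CD VEH and WT VEH was not called by edgeR (-0.21, SE 0.09, adjusted p = 0.105, and 0.0448 with DESeq2), and the interaction was (0.56, SE 0.12, adjusted p = 0.00299).

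Slc2a1 (ENSMUSG00000028645.11, chr4:119108711-119137983) followed another order. It stood at 8.83 and 8.51 CPM in WT VEH, at 8.98, 7.27 and 8.88 CPM in WT JZL184, at 10.4, 9.82 and 8.16 CPM in CD VEH, and at 10.7, 11.6 and 11.3 CPM in CD JZL184. The CD JZL184 mice were above all other mice, which overlapped. Among the tests of Slc2a1 only CD JZL184 against WT JZL184 was called (log2 fold-change of 0.42, SE 0.10, adjusted p = 0.00796), whereas CD JZL184 against CD VEH gave 0.24 (SE 0.10, adjusted p = 0.0824). The interaction for Slc2a1 gave 0.29 (SE 0.15, adjusted p = 0.131).

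The hexokinases had the same order of group means as Slc2a4, highest in CD JZL184 and lowest in WT JZL184. Hk1 (ENSMUSG00000037012.18, chr10:62268855-62379908), the isoform found in most tissues, stood at 118.9 and 122.5 CPM in WT VEH, at 99.1, 87.2 and 90.5 CPM in WT JZL184, at 100.6, 107.7 and 92.2 CPM in CD VEH, and at 134.3, 134.4 and 134.2 CPM in CD JZL184. The 3 CD JZL184 mice were nearly equal and above all others, and the groups WT JZL184 and CD VEH lay below WT VEH without overlap. Hk1 was lower in CD VEH (log2 fold-change of -0.27, SE 0.08, adjusted p = 0.0232) and in WT JZL184 (-0.39, SE 0.08, adjusted p = 0.0056) than in WT VEH. It was higher in CD JZL184 than in CD VEH (0.42, SE 0.07, adjusted p = 0.00263) and than in WT JZL184 (0.54, SE 0.07, adjusted p = 0.000528). Its interaction had the lowest adjusted p of the 10 genes (0.81, SE 0.10, adjusted p = 0.000198).

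Hk2 (ENSMUSG00000000628.10, chr6:82725025-82774454), the insulin-responsive isoform of striated muscle, stood at 226.4 and 226.0 CPM in WT VEH, at 186.5, 122.9 and 165.7 CPM in WT JZL184, at 152.4, 189.8 and 154.3 CPM in CD VEH, and at 225.9, 231.6 and 247.9 CPM in CD JZL184. No WT JZL184 or CD VEH mouse was above 189.8 CPM, and no WT VEH or CD JZL184 mouse was below 225.9 CPM. The log2 fold-change of Hk2 was -0.45 (SE 0.15, adjusted p = 0.0364) in CD VEH and -0.51 (SE 0.15, adjusted p = 0.022) in WT JZL184, both relative to WT VEH. CD JZL184 exceeded CD VEH by 0.51 (SE 0.13, adjusted p = 0.0137) and WT JZL184 by 0.57 (SE 0.13, adjusted p = 0.00622), and the interaction was 1.02 (SE 0.20, adjusted p = 0.00135). With an offset for transcript length, Hk2 was no longer called between CD VEH and WT VEH (adjusted p = 0.0568). Per kilobase, Hk2 made up 55.5% to 62.7% of the 2 hexokinases, with the lowest share in WT JZL184 mouse B. Over the 11 mice, the genes whose log2 CPM followed Hk2 most closely were Myh6, the fast cardiac myosin heavy chain (Pearson r of 0.993, and 0.984 for deviations from group means), and Iars (0.986). For Hk1 they were Acss1, a mitochondrial acetyl-CoA synthetase (0.996), and Asb15 (0.987), which also came first for Slc2a4 (0.977). These points share libraries and scaling, and the values are descriptions.

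Pfkfb2 (ENSMUSG00000026409.14, chr1:130689182-130729253) had the largest interaction of the 10 genes. Its level was 115.7 and 100.1 CPM in WT VEH, 95.1, 55.3 and 58.9 CPM in WT JZL184, 67.8, 65.3 and 63.6 CPM in CD VEH, and 92.3, 82.7 and 100.6 CPM in CD JZL184. The CD VEH mice lay close together and below every VEH-treated WT mouse and every CD JZL184 mouse, while WT JZL184 mouse A stood apart from mice B and D. Pfkfb2 was lower in CD VEH than in WT VEH (log2 fold-change of -0.72, SE 0.18, adjusted p = 0.0143) and lower in WT JZL184 than in WT VEH (-0.63, SE 0.18, adjusted p = 0.0241). It was higher in CD JZL184 than in CD VEH (0.49, SE 0.17, adjusted p = 0.0403), and the difference between CD JZL184 and WT JZL184 was not called (0.40, SE 0.17, adjusted p = 0.0749). The interaction was 1.12 (SE 0.25, adjusted p = 0.00299).

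**Figure D2:**
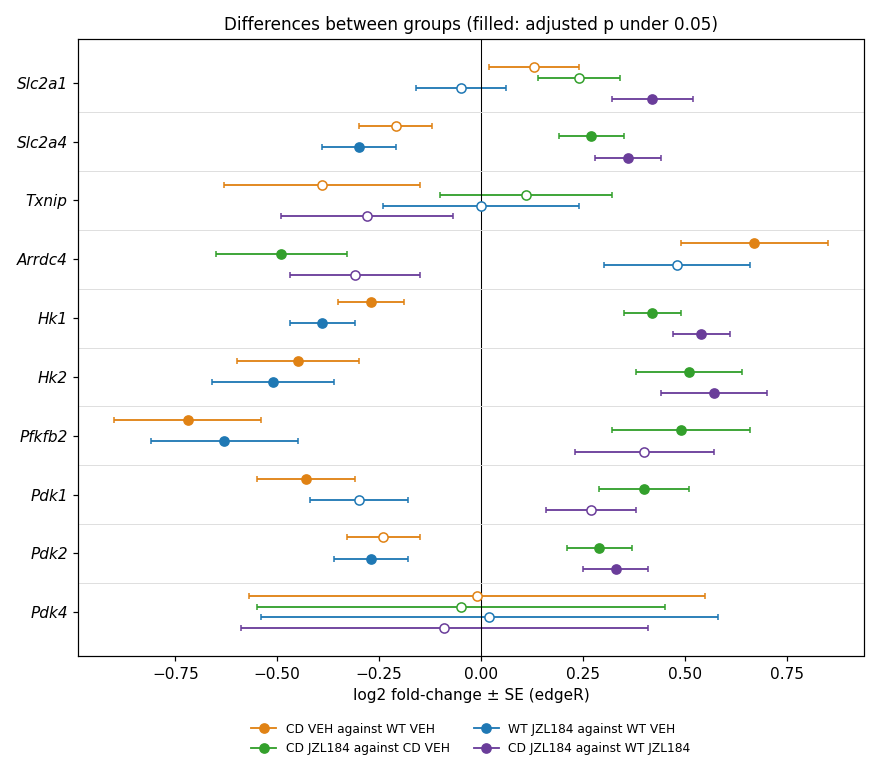
Log2 fold-change (x axis) of the 10 genes in the 4 comparisons between groups; bars are the SE of edgeR's quasi-likelihood fit and filled points passed an adjusted p of 0.05. Slc2a4, Hk1, Hk2, Pfkfb2, Pdk1 and Pdk2 lie left of 0 where CD VEH or WT JZL184 is set against WT VEH and right of 0 in both comparisons of CD JZL184, Arrdc4 lies on the opposite sides, and no point of Txnip or Pdk4 is filled.

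Of the kinases of pyruvate dehydrogenase, Pdk1 and Pdk2 differed between groups, and Pdk4 varied widely within them. Pdk1 (ENSMUSG00000006494.11, chr2:71873224-71903858), known as a target of the hypoxia factor HIF-1, stood at 141.8 and 142.6 CPM in WT VEH, at 138.2, 102.9 and 105.3 CPM in WT JZL184, at 104.4, 117.9 and 95.0 CPM in CD VEH, and at 142.0, 136.8 and 139.7 CPM in CD JZL184. The CD VEH mice were below both WT VEH and all CD JZL184 mice, and WT JZL184 mouse A was near the levels of the latter. Pdk1 was lower in CD VEH than in WT VEH (log2 fold-change of -0.43, SE 0.12, adjusted p = 0.0211) and higher in CD JZL184 than in CD VEH (0.40, SE 0.11, adjusted p = 0.0163). WT JZL184 against WT VEH gave -0.30 (SE 0.12, adjusted p = 0.0775), and the interaction was 0.70 (SE 0.16, adjusted p = 0.00386). With the offset for transcript length, the first of these had an adjusted p of 0.0599 and the second 0.0604.

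Pdk2 (ENSMUSG00000038967.13, chr11:95026258-95041354), the isoform that is expressed in most tissues, stood at 260.4 and 288.4 CPM in WT VEH, at 222.8, 220.7 and 238.8 CPM in WT JZL184, at 228.4, 255.8 and 215.0 CPM in CD VEH, and at 275.8, 297.1 and 282.3 CPM in CD JZL184. All CD VEH and WT JZL184 mice were below all WT VEH and CD JZL184 mice, by a narrow margin between CD VEH mouse C and WT VEH mouse C. Pdk2 was lower in WT JZL184 than in WT VEH (log2 fold-change of -0.27, SE 0.09, adjusted p = 0.0357). CD VEH against WT VEH gave -0.24 (SE 0.09, adjusted p = 0.0583), and it was called with the offset for transcript length (-0.29, adjusted p = 0.0299), with RLE factors (adjusted p = 0.0482) and with DESeq2 (adjusted p = 0.0155). CD JZL184 exceeded CD VEH by 0.29 (SE 0.08, adjusted p = 0.0159) and WT JZL184 by 0.33 (SE 0.08, adjusted p = 0.0075), with an interaction of 0.56 (SE 0.12, adjusted p = 0.00214). The genes closest to Pdk2 over the 11 mice were Acsl1, the main long-chain acyl-CoA synthetase of the heart (r of 0.982), and Ap3s2 (0.981). For Pdk1 they were Tmem38a (0.980) and Nln (0.976), and for Pfkfb2 Zfyve16 (0.980) and Exoc6 (0.978).

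Pdk4 (ENSMUSG00000019577.6, chr6:5483351-5496309), the isoform induced by fasting and fatty acids, varied by mouse rather than by group. It stood at 400.2 and 1079 CPM in WT VEH, at 399.7, 808.0 and 1045 CPM in WT JZL184, at 622.3, 864.8 and 713.7 CPM in CD VEH, and at 611.7, 1246 and 262.2 CPM in CD JZL184. The highest mouse was 4.75 times the lowest, both were in CD JZL184, and the 4 groups overlapped. The log2 fold-change of Pdk4 lay between -0.09 and 0.02 in the 4 comparisons, with an SE of 0.50 to 0.56 and adjusted p of 0.898 or more by edgeR. A call needs a difference of more than 1 SE, so moderate differences in Pdk4 could not be detected. The share of Pdk4 among Pdk1, Pdk2 and Pdk4 (per kilobase) ran from 33% in CD JZL184 mouse E to 70.3% in WT JZL184 mouse D, and it was 44.5% and 66.5% in the WT VEH mice. CD JZL184 mouse E was the only mouse in which Pdk2 (55.2%) exceeded Pdk4 by more than 1 percentage point.

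**Figure D3:**
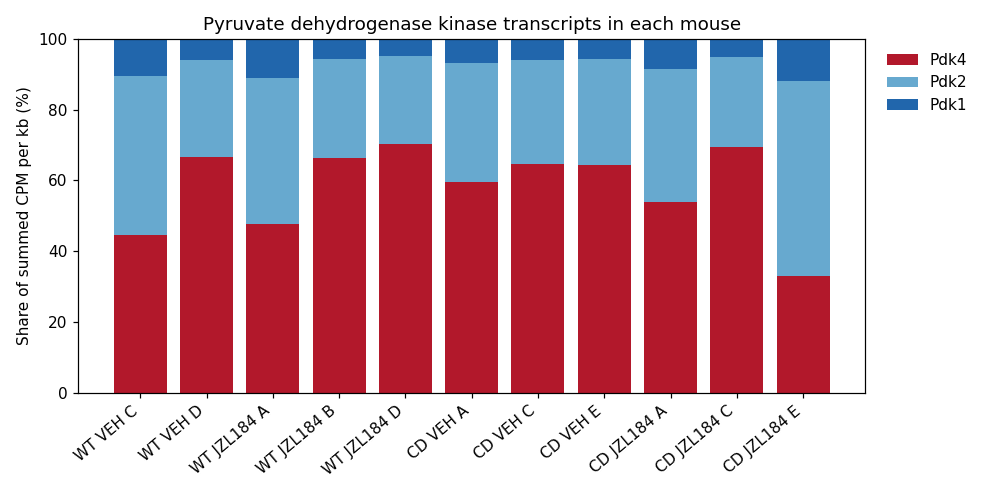
Share of Pdk4, Pdk2 and Pdk1 in their summed CPM per kilobase (y axis, %) in each of the 11 mice (x axis), stacked to 100%. The Pdk4 share ranges from 33% to 70.3%, and it was 44.5% and 66.5% in the 2 WT VEH mice.

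Other targets of the fatty acid sensors of the PPAR family followed Pdk4 across mice. Among all tested genes, Angptl4, an inhibitor of lipoprotein lipase, and Ucp3, a mitochondrial carrier, had the highest correlations with Pdk4 (r of 0.937 and 0.933 over 11 mice, Spearman's rho of 0.964 and 0.864, and 0.967 and 0.969 for deviations from group means). Angptl4 stood at 7.81 and 27.9 CPM in WT VEH, at 14.8, 25.2 and 39.6 CPM in WT JZL184, at 17.1, 25.5 and 17.9 CPM in CD VEH, and at 12.1, 47.7 and 6.86 CPM in CD JZL184. Ucp3 stood at 22.6 and 54.0, at 19.5, 64.9 and 60.7, at 54.6, 70.3 and 50, and at 43.5, 87.3 and 18.2 CPM in the same order of mice. CD JZL184 mouse C was highest and mouse E lowest for Pdk4, Angptl4 and Ucp3 alike. Neither Angptl4 nor Ucp3 was called in any comparison. Of the 7 PPAR targets listed, only Cpt1b, the carnitine palmitoyltransferase of muscle, was called; its r with Pdk4 was 0.01 (0.53 for deviations from group means), beside 0.86 (0.89) for Cpt1a, 0.69 (0.85) for Acot2 and 0.68 (0.90) for Acot1. Cpt1b was lower in CD VEH (log2 fold-change of -0.37, adjusted p = 0.00898) and in WT JZL184 (-0.46, adjusted p = 0.00385) than in WT VEH, and higher in CD JZL184 than in CD VEH (0.34, adjusted p = 0.00639).

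**Figure D4:**
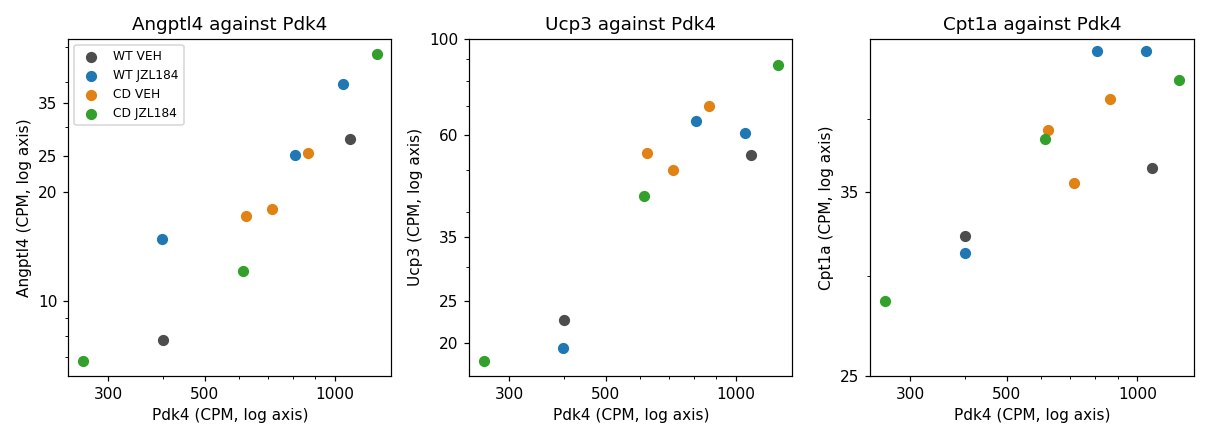
Levels of Angptl4, Ucp3 and Cpt1a (y axes, CPM, log scale) against Pdk4 (x axes, CPM, log scale); each point is a mouse, coloured by group. The mice of each group are spread along the same rising trend (r of 0.937, 0.933 and 0.86 with Pdk4).

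The arrestin-domain genes gave different pictures. Txnip (ENSMUSG00000038393.14, chr3:96557957-96561883) stood at 516.2 and 665.5 CPM in WT VEH, at 604.9, 626.8 and 538.9 CPM in WT JZL184, at 500.9, 403.9 and 449.6 CPM in CD VEH, and at 324.9, 691.1 and 443.2 CPM in CD JZL184. All 3 CD VEH mice were below all WT mice, but CD JZL184 mouse C was the highest of all and mouse A the lowest. No comparison of Txnip was called in the model of all mice. CD VEH against WT VEH gave -0.39 (SE 0.24, adjusted p = 0.224) and CD JZL184 against WT JZL184 gave -0.28 (SE 0.21, adjusted p = 0.314). The effect of JZL184 was 0.11 (SE 0.21, adjusted p = 0.718) in CD mice and -0.00 (SE 0.24, adjusted p = 0.997) in WT mice, and the interaction was 0.11 (SE 0.32, adjusted p = 0.79). Txnip was called lower in CD VEH than in WT VEH when these groups alone were fitted (-0.39, adjusted p = 0.0469), and its log2 fold-change there was -0.56 to -0.20 over 11 alternatives. Between CD JZL184 and WT JZL184 it was -0.63 (adjusted p = 0.0139) without CD JZL184 mouse C and -0.06 (adjusted p = 0.812) without mouse A.

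Arrdc4 (ENSMUSG00000042659.15, chr7:68736995-68749241) was expressed far below Txnip and moved against the hexokinases. It stood at 9.96 and 11 CPM in WT VEH, at 14.3, 18.9 and 10.9 CPM in WT JZL184, at 16.8, 16.3 and 16.9 CPM in CD VEH, and at 10.5, 13.9 and 11.1 CPM in CD JZL184. The CD VEH mice were tightly grouped above all WT VEH and CD JZL184 mice, whereas the WT JZL184 mice ranged across all groups. Arrdc4 was higher in CD VEH than in WT VEH (log2 fold-change of 0.67, SE 0.18, adjusted p = 0.02) and lower in CD JZL184 than in CD VEH (-0.49, SE 0.16, adjusted p = 0.0337). WT JZL184 against WT VEH gave 0.48 (SE 0.18, adjusted p = 0.0658), and the interaction was -0.98 (SE 0.24, adjusted p = 0.00601). Txnip and Arrdc4 had an r of 0.16 over the 11 mice and 0.62 for deviations from group means, and Txnip made up 95.7% to 98.2% of their summed CPM per kilobase. The closest genes were Med10 (0.968) and Rbbp9 (0.963) for Arrdc4, Tspan9 (0.833) and Mtx1 (0.792) for Txnip, and Rfwd3 (0.968) and Tchp (0.940) for Slc2a1. Of the other arrestin-domain genes, Arrdc1 was higher in CD VEH (0.68, adjusted p = 0.0145) and in WT JZL184 (0.80, adjusted p = 0.00768) than in WT VEH, and Arrdc3 was lower in WT JZL184 than in WT VEH (-0.55, adjusted p = 0.00617).

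The wider pathway was described with lists of 63 genes, of which 56 were tested. In CD VEH against WT VEH, 3 were called higher and 16 lower, with a median log2 fold-change of -0.18. The counts were 15 higher and 4 lower in CD JZL184 against CD VEH (median 0.12), 4 higher and 16 lower in WT JZL184 against WT VEH (median -0.19), and 17 higher and 7 lower in CD JZL184 against WT JZL184 (median 0.13). The share of the 56 genes that was called was near or slightly above that of all genes tested (30.0%, 33.5%, 29.2% and 38.3% in the same order). The glycogen genes that were called had the same direction within each comparison. Of 8 tested, 4 were called lower in CD VEH and 4 in WT JZL184 against WT VEH, 5 were called higher in CD JZL184 against CD VEH and 6 against WT JZL184. Gys1, the glycogen synthase of muscle, was higher in CD JZL184 than in CD VEH (log2 fold-change of 0.56, adjusted p = 0.00407) and than in WT JZL184 (0.60, adjusted p = 0.00183), and Pygb, a glycogen phosphorylase, was lower in CD VEH than in WT VEH (-0.43, adjusted p = 0.0121). The list thus held enzymes of both glycogen synthesis and breakdown among its calls.

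Of the 10 genes of insulin signalling to GLUT4, 5 were called lower and 1 higher in CD VEH and likewise in WT JZL184 against WT VEH, beside 30.0% and 29.2% of all genes. In CD JZL184, 5 were called higher and 1 lower against CD VEH and likewise against WT JZL184, beside 33.5% and 38.3% of all genes. Lnpep, the aminopeptidase that travels with GLUT4 vesicles, was lower in CD VEH than in WT VEH (log2 fold-change of -0.59, adjusted p = 0.0129) and higher in CD JZL184 than in CD VEH (0.64, adjusted p = 0.00522). Pik3r1, a regulatory subunit of phosphoinositide 3-kinase, was lower in WT JZL184 than in WT VEH (-0.60, adjusted p = 0.0105). Tbc1d1, which holds GLUT4 vesicles inside the cell, was the gene that moved the other way (0.29 with an adjusted p of 0.0274 in CD VEH and 0.39 with an adjusted p of 0.00828 in WT JZL184, both relative to WT VEH). Akt2 had log2 fold-changes of 0.02 and -0.11 in the same comparisons and was not called.

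Of 13 glycolytic enzymes tested, 3 were called lower in CD VEH against WT VEH, beside 30.0% of all genes called. The lowest was Pfkm, the muscle phosphofructokinase that the product of Pfkfb2 activates (log2 fold-change of -0.42, adjusted p = 0.0131). Pfkm was also lower in WT JZL184 than in WT VEH (-0.47, adjusted p = 0.00858) and higher in CD JZL184 than in CD VEH (0.36, adjusted p = 0.0135), whereas Eno1 was lower in CD JZL184 than in CD VEH (-0.25, adjusted p = 0.0173). Of the 10 genes of pyruvate entry and the dehydrogenase complex, 2 were called lower in CD VEH against WT VEH, beside the same 30.0% of all genes. These were Pdpr, the regulatory subunit of pyruvate dehydrogenase phosphatase (-0.74, adjusted p = 0.0029), and Dlat, the acetyltransferase core of the complex (-0.44, adjusted p = 0.0049). Pdpr was lower in WT JZL184 than in WT VEH (-0.65, adjusted p = 0.00379) and higher in CD JZL184 than in CD VEH (0.64, adjusted p = 0.00265). The catalytic phosphatase genes Pdp1 (0.14, adjusted p = 0.409) and Pdp2 (0.19, adjusted p = 0.492) were not called in CD VEH against WT VEH. Of the other glucose transporters, Slc2a12 was higher in CD JZL184 than in CD VEH (0.23, adjusted p = 0.0454).

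Genes that share regulators with the 10 genes were grouped in further lists. Of 7 tested HIF-1 targets, 2 were called higher and 2 lower in CD VEH against WT VEH, beside 30.0% of all genes. They ran from Vegfa (log2 fold-change of -0.70, adjusted p = 0.005) to Ankrd37 (0.92, adjusted p = 0.00949). Of 6 glucocorticoid-responsive genes, Sgk1 was higher in CD VEH than in WT VEH (0.44, adjusted p = 0.0265) and lower in CD JZL184 than in CD VEH (-0.89, adjusted p = 0.00209). In the latter comparison Zbtb16 was higher (0.40, adjusted p = 0.0285) and Cebpd lower (-0.87, adjusted p = 0.028). Of 8 circadian clock genes, only Per2 was called, in CD JZL184 against WT JZL184 (-0.93, adjusted p = 0.0287).

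**Figure D5:**
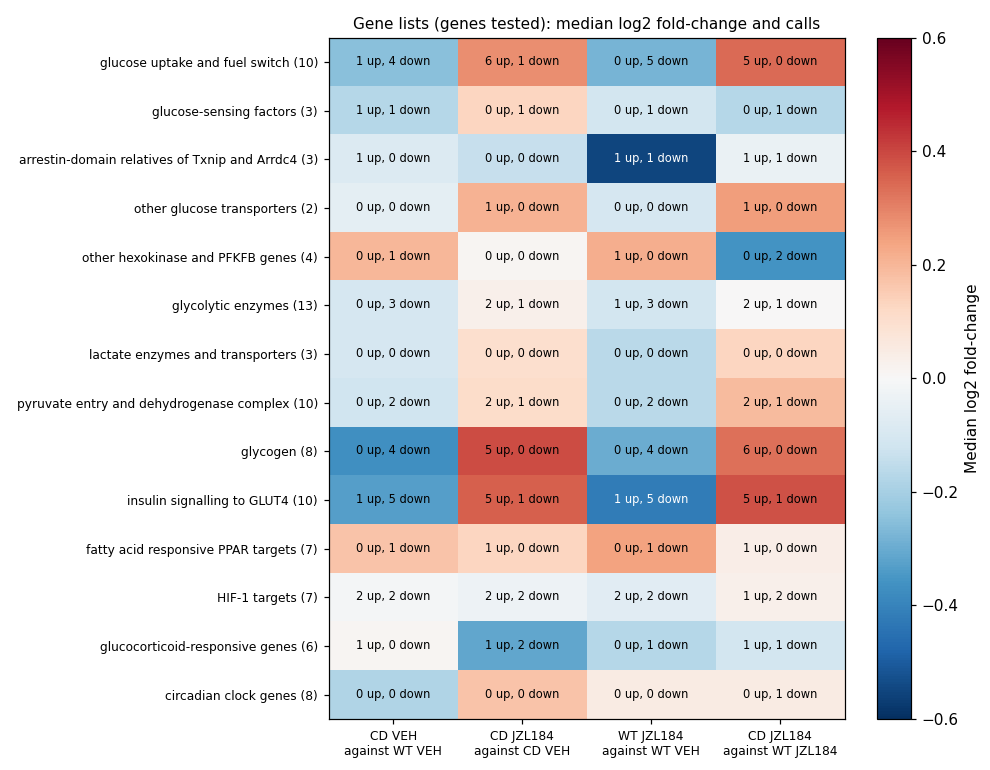
Median log2 fold-change (colour) of each gene list in the 4 comparisons (columns), with the number of its genes called higher (up) and lower (down) written in each cell and the number tested after its name. The lists of glycogen, insulin signalling, pyruvate entry, lactate and other glucose transporter genes have the same sign of median as the 10 genes in the top line in all 4 comparisons.

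Other measures moved with the same groups. The endothelial markers were called higher for 5 of 6 in CD VEH and for 6 of 6 in WT JZL184, each compared with WT VEH, and lower for 5 of 6 in CD JZL184 against CD VEH and for 6 of 6 against WT JZL184, the reverse of Hk1 and Hk2. Of 5 macrophage markers, 4 were higher in CD VEH and 5 in WT JZL184 against WT VEH, and 5 were lower in CD JZL184 in each of its comparisons. Of 4 tested smooth muscle markers, 3 were higher in CD VEH (median log2 fold-change of 0.71) and 3 in WT JZL184 (1.14) relative to WT VEH, and 3 were lower in CD JZL184 than in CD VEH (-0.75) and 4 than in WT JZL184 (-1.20). Of 5 fibroblast markers, 1 was higher in CD VEH (0.14) and 2 in WT JZL184 (0.15) relative to WT VEH. In CD JZL184, 1 was lower than in CD VEH (-0.09) and 2 than in WT JZL184 (-0.20). All 5 tested erythroid markers were called lower in CD JZL184 than in CD VEH (median -2.16), but without CD VEH mouse A the sums overlapped, at 2892 and 2034 CPM in CD VEH mice C and E and 1419 to 2211 CPM in CD JZL184. The median log2 fold-change of the 8 cardiomyocyte markers was -0.12 for CD VEH and -0.14 for WT JZL184 relative to WT VEH, and 0.04 and 0.10 for CD JZL184 relative to CD VEH and WT JZL184, signs shared with the medians of the 10 genes. Of these markers, 2 were lower in WT JZL184 than in WT VEH, 2 were higher and 1 lower in CD JZL184 than in CD VEH, and 2 were higher in CD JZL184 than in WT JZL184. Their sum was lowest, at 35123 CPM, in WT JZL184 mouse B, which also had the lowest Slc2a4, Hk1, Hk2 and Pfkfb2 of all mice. A fit without the mitochondrial genome genes called the same members of the 10 genes as the main fit in the 4 comparisons and the interaction. In that fit, 28.7% to 51.2% of all genes were called. The part of these markers and of the mitochondrial share in the results was otherwise not tested.

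When CD VEH mouse A with its high erythroid sum was left out, 1 of the 10 genes was called in CD VEH against WT VEH (Pfkfb2, with 16.5% of all genes called) and 1 in CD JZL184 against CD VEH (Hk1, with 18.3% of all genes). In CD VEH against WT VEH, the 4 genes that lost their call kept the direction of their log2 fold-change under every alternative run, at 0.59 to 0.74 for Arrdc4, -0.32 to -0.21 for Hk1, -0.56 to -0.40 for Hk2 and -0.51 to -0.33 for Pdk1. In CD JZL184 against CD VEH the same held for the 6 genes that lost theirs, at 0.20 to 0.33 for Slc2a4, -0.62 to -0.42 for Arrdc4, 0.44 to 0.62 for Hk2, 0.41 to 0.56 for Pfkfb2, 0.29 to 0.48 for Pdk1 and 0.24 to 0.36 for Pdk2. These ranges cover all alternatives, which share most of their mice, so a kept direction is no independent support for the lost calls. The 7 interaction calls held without that mouse and with any other mouse left out, while 40.5% to 56.9% of all genes were called in those fits. The comparisons with WT VEH rest on 2 mice of that group. In a model restricted to both groups, Hk1 alone of the 10 genes was called in WT JZL184 against WT VEH, and Slc2a4 (adjusted p = 0.104), Hk2 (0.075), Pfkfb2 (0.0916) and Pdk2 (0.117) were not, with 14.1% of all genes called. Leaving out WT VEH mouse C or D left 1 mouse in that group, and most calls against WT VEH were then lost. In WT JZL184 against WT VEH, the log2 fold-changes over all alternatives were -0.35 to -0.25 for Slc2a4 and -0.44 to -0.35 for Hk1. They were -0.65 to -0.36 for Hk2, -0.92 to -0.49 for Pfkfb2 and -0.34 to -0.19 for Pdk2. With all mice, DESeq2 called 7 of the 10 genes in CD VEH and 7 in WT JZL184 against WT VEH, with 34.5% and 33.2% of all genes. Leaving out CD VEH mouse E gave 2 calls between CD VEH and WT VEH (17.2% of all genes) and 1 between CD JZL184 and CD VEH (17.6%). Leaving out CD JZL184 mouse E gave 2 in the latter (18.3%), and leaving out WT JZL184 mouse B gave 2 in WT JZL184 against WT VEH (18.6%). In CD JZL184 against WT JZL184, the calls of Slc2a1, Slc2a4, Hk1, Hk2 and Pdk2 held with each of the 6 mice left out, while 25.7% to 44.2% of all genes were called.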

How the data were processed

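Ventricular RNA of 11 mice had been sequenced on an Illumina HiSeq3000. The table deposited by the authors holds estimated counts for each gene in each mouse, not normalized, which came from Salmon 0.7.2 (annotation of GRCm38, Ensembl release 85) and tximport. Strandedness of the libraries was not given in the sources used here. No column lacked a group (0 columns).

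Counts were rounded and analysed by the quasi-likelihood test of edgeR 4.0.16 (with limma 3.58.1, in R 4.3.3). TMM factors were used, the minimum was a mean log2 CPM of 1, which left 11319 genes, and all 4 groups formed 1 model with no covariate. P-values were adjusted over these genes by the method of Benjamini and Hochberg, and the SE is the size of the log2 fold-change divided by the square root of F. Depth was 69660232 to 92251443 counts per mouse. The biological coefficient of variation, common to all genes, was 9.14%. Mice of the same group differed by a chi-square of 17.2 to 92.7 per gene, so none were duplicates. GENCODE mouse release 21 matched 22238 of 22608 genes and gave symbols, positions and transcript lengths. Correlations used log2 CPM with a prior count of 2.

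The interaction is the JZL184 effect in CD mice minus that in WT mice. The named genes are the 10 genes, Mlxipl, the called genes with the lowest and the highest log2 fold-change of each list in a comparison, and the 2 genes most correlated with each of the 10. Mlxip, Akt2, Cebpd, Pdp1, Pdp2, the other PPAR targets and Slc2a12 in 1 comparison are named beside them from the same lists, and some genes of the rule are not reported here. The 10 genes and all lists were chosen with earlier results of these data known. The alternatives were DESeq2 1.42.0, RLE factors, no filter, an offset for transcript length (loess, span 0.5), no mitochondrial genes, only the compared groups, and each mouse left out. The steps were tested on simulated counts.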

Additional observations from a re-analysis of the deposited data

Results flagged for a closer look

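The effect of JZL184 in CD mice differed from that in WT mice for 7 genes by the interaction term of edgeR's quasi-likelihood test (adjusted p of 0.00601 or less in each). The difference of the log2 fold-changes, CD minus WT, was 1.12 for Pfkfb2, 1.02 for Hk2, 0.81 for Hk1, 0.70 for Pdk1, 0.56 for Slc2a4, 0.56 for Pdk2 and -0.98 for Arrdc4. The interaction was called for 51.5% of all genes tested. No group had the 4 mice that a search for single deviating mice needs.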

How the results depend on the processing

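Of 620 alternative log2 fold-changes of the 10 genes, 516 kept their direction and their side of the threshold, 60 lost and 17 gained a call, and 27 changed sign, all of the latter for results that were not called. In a model of the compared groups alone, WT JZL184 against WT VEH gave 1 of the 10 genes and 11 pathway genes called. Leaving out each mouse in turn gave 0 to 7 of the 10 genes and 4 to 21 pathway genes in CD VEH against WT VEH, 1 to 5 and 9 to 18 in CD JZL184 against CD VEH, 0 to 6 and 5 to 38 in WT JZL184 against WT VEH, and 18 to 37 pathway genes in CD JZL184 against WT JZL184. In these fits the share of all genes called ran from 3.28% to 30.9%, 17.6% to 34.3%, 5.18% to 40% and 25.7% to 44.2% in the same order. A lone WT VEH mouse was assumed to vary like the other groups. The Pdk4 log2 fold-change between CD VEH and WT VEH was 0.01 with the length offset. That of Txnip in WT JZL184 against WT VEH was 0.01 with DESeq2, 0.00 without mitochondrial genes and 0.01 with only the compared groups. Leaving out single mice moved Pdk4 from -0.56 to 0.87 in CD VEH against WT VEH, -0.75 to 0.34 in CD JZL184 against CD VEH, -0.52 to 0.91 in WT JZL184 against WT VEH, -0.79 to 0.30 in CD JZL184 against WT JZL184 and -0.96 to 0.47 in the interaction. Txnip ranged from -0.23 to 0.33 in CD JZL184 against CD VEH, -0.17 to 0.19 in WT JZL184 against WT VEH, -0.56 to -0.20 between CD VEH and WT VEH, -0.63 to -0.06 between CD JZL184 and WT JZL184 and -0.24 to 0.33 in the interaction, and Slc2a1 from -0.10 to 0.04 in WT JZL184 against WT VEH. The length offset ended the calls of Hk2 and Pdk1 between CD VEH and WT VEH (adjusted p = 0.0568 and 0.0599) and of Pdk1 in CD JZL184 against CD VEH (0.0604), and added that of Pdk2 between CD VEH and WT VEH (0.0299). The causes were not tested. No paired analysis was possible because the columns carry letters that are in no sample label.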
